A study of Mus musculus with 4 samples.

Results

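The unfolded protein response sensors and transducers are 10 genes of the 23482 in the deposited table, taken by gene symbol: Ern1, Eif2ak3, Atf6, Atf6b, Xbp1, Creb3l1, Creb3l2, Creb3, Mbtps1 and Mbtps2. All 10 were found. RNA of quadriceps muscle from FVB/N mice, 6 to 8 weeks old, was sequenced in 2 libraries of non-transgenic controls and 2 libraries of mice that overexpress Thbs1, the gene of the secreted matrix glycoprotein thrombospondin-1. Which promoter drives the transgene is not stated in the labels. Nor do these say whether a library stands for its own animal, so p-values measure the spread between these libraries, which may be technical. The question addressed is how the messages of the endoplasmic reticulum (ER) stress sensors stand in muscle that carries the transgene.

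Cells watch the folding of proteins in the ER with a small set of membrane proteins. The kinase and nuclease IRE1 (Ern1) cuts the Xbp1 message so that it encodes an active transcription factor, the kinase PERK (Eif2ak3) phosphorylates the translation factor eIF2alpha and so favours translation of ATF4, and ATF6 travels to the Golgi, where site-1 protease (Mbtps1) and site-2 protease (Mbtps2) release its transcription factor part. Atf6b, Creb3, Creb3l1 and Creb3l2 encode related membrane-bound transcription factors that are cut by the same proteases. Many of these proteins are controlled in large part after transcription, by steps such as release of the chaperone BiP, phosphorylation, splicing or cleavage. None of those steps is read by a table of message levels. In skeletal muscle the ER is continuous with the sarcoplasmic reticulum, which stores calcium for contraction.

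The step of Xbp1 that the table cannot read is shown here, because the deposited values give 1 level per gene and do not separate the spliced from the unspliced message. The segment that IRE1 removes has 26 bases. Of 2 runs of that length between the triplets at which IRE1 cuts, it is the one whose removal gives the longer reading frame. It lies in exon 4 of Xbp1-201, at chr11:5524279-5524304 on the forward strand of GRCm38. The stretch printed spans chr11:5524259-5524324, from the GENCODE M21 transcript, and the capitals mark the segment. With the segment the reading frame holds 267 codons, and without it 371 codons.
Xbp1 segment: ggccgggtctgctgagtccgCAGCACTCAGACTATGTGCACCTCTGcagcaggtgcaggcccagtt

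The libraries held 18815221 to 20053685 reads in genes. Thbs1 was at 8.61 and 12.2 RPKM (reads scaled to the length of the gene model and to all reads in genes) in the controls and at 12900 and 15411 RPKM in the transgenics, where it took 12.0% and 14.4% of the reads. Those reads lower the RPKM of every other gene in the transgenic libraries, so results are given with other scalings too. The skeletal muscle marker list summed to 43369 and 44755 RPKM in the controls and 25975 and 31890 RPKM in the transgenics, with 0 of 10 markers called by limma, 5 lower and 1 higher at an unadjusted p under 0.05, and 3 called lower by limma-voom.

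Of the 10 genes Atf6 alone passed the test, and it rose about 2-fold. Xbp1, Creb3, Atf6b, Creb3l2, Eif2ak3, Ern1 and Creb3l1 also had both transgenic libraries above both control libraries, with folds in RPKM of 1.47 to 2.21, but did not pass or were too low to be tested. The proteases Mbtps1 and Mbtps2 had overlapping groups. The test was limma on log2(RPKM + 1) with Benjamini-Hochberg adjustment and a threshold of 0.05, run on the 10015 genes that reached 1 RPKM in 2 or more libraries, and fold changes on that scale understate the change of low genes. Of the 10 genes 8 were tested, 1 was called higher and 0 lower, where 6.25% of all tested genes were called higher and 1.22% lower. At an unadjusted p under 0.05, 6 of the 8 were higher and 0 lower, against 20.4% of all tested genes higher. Of the 8 tested, 6 had groups that did not overlap with the transgenic libraries on top, against 38.4% of all tested genes. Both counts include Eif2ak3, which entered the test through its transgenic values, and without it each was 5 of 7.

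**Figure D1:**
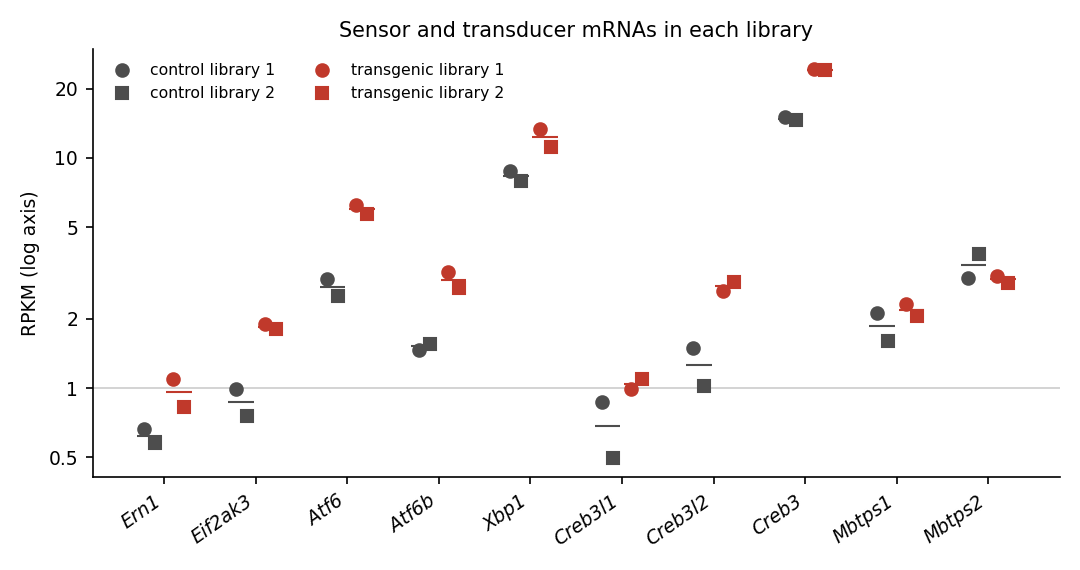
RPKM of each gene on a log axis in the 2 control libraries (grey) and the 2 transgenic libraries (red), with circles for library 1, squares for library 2 and bars for group means. Atf6 lies at 2.52 and 2.99 RPKM in grey and at 5.72 and 6.22 RPKM in red, while the points of Mbtps1 and of Mbtps2 overlap between groups.

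Among the ER stress sensors, Atf6 was at 2.99 and 2.52 RPKM in control libraries 1 and 2 and at 6.22 and 5.72 RPKM in transgenic libraries 1 and 2, from 448 to 1177 reads. Both transgenic libraries were high and the groups were far apart. The mean went from 2.76 ± 0.331 to 5.97 ± 0.351 RPKM (SD, n = 2), a fold of 2.17, with a log2 fold change of 0.89 (SE 0.15, 95% interval 0.52 to 1.27, limma adjusted p = 0.0334). The call did not survive leaving out either control library or transgenic library 1 (limma adjusted p = 0.0586, 0.134 and 0.0839), and with no filter on low values (0.0783). The log2 fold change itself ran from 0.75 to 1.12 over 13 alternatives. Changes of threshold or filter and the replicate block leave it at 0.89 by construction. Limma-voom and a pseudocount of 0.1 measure it on another scale. With both libraries of each group kept, adjusted p by limma or limma-voom ran from 0.0176 to 0.0783. Atf6 lies on chromosome 1 from 170704674 to 170867771 on the reverse strand of GRCm38, and its exons overlap no other gene in GENCODE M21.

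Atf6b encodes a paralog of ATF6 with a similar membrane-bound design and, in mammalian cells, a weaker activating domain. It was at 1.47 and 1.56 RPKM in control muscle and at 3.20 and 2.71 RPKM in the transgenics, from 134 to 301 reads. The groups did not overlap, and the controls lay close together. The fold in RPKM was 1.95 and the log2 fold change 0.65 (95% interval 0.28 to 1.01, limma adjusted p = 0.0613), just outside the threshold. The level of Atf6 was above that of Atf6b in all 4 libraries on the RPKM scale.

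Eif2ak3, which encodes PERK, was at 0.987 and 0.759 RPKM in control muscle and at 1.89 and 1.80 RPKM in the transgenics, from 112 to 298 reads. Both controls were below 1 RPKM, so the gene entered the test through its transgenic values, which favours a difference. The fold in RPKM was 2.11 and the log2 fold change 0.61 (95% interval 0.24 to 0.97, limma adjusted p = 0.068). Its exons overlap those of Gm43292 on the opposite strand, and no source states that the counting used strand, so the pair's reads cannot be told apart.

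Ern1, which encodes IRE1alpha, had the fewest reads per length in the controls. It was at 0.664 and 0.577 RPKM there and at 1.10 and 0.825 RPKM in the transgenics, from 75 to 153 reads. The groups did not overlap, and transgenic library 1 was the highest of the 4. It was below the filter and was not tested. With a filter of 0.5 RPKM, chosen after seeing the data, which tests all 10 genes, its log2 fold change was 0.27 (95% interval -0.07 to 0.62, limma adjusted p = 0.27). Its paralog Ern2, which is known mainly from gut epithelium, was listed at 0 in all 4 libraries.

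Xbp1, the substrate of IRE1 and the transcription factor that drives genes of ER expansion and degradation, was at 8.75 and 7.96 RPKM in control muscle and at 13.4 and 11.1 RPKM in the transgenics, from 958 to 1719 reads. The groups did not overlap, and transgenic library 2 lay nearer to the controls than transgenic library 1 did. The mean went from 8.36 ± 0.555 to 12.3 ± 1.62 RPKM (SD, n = 2), a fold of 1.47, with a log2 fold change of 0.50 (95% interval 0.09 to 0.91, limma adjusted p = 0.124). The value sums the spliced and unspliced message.

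**Figure D2:**
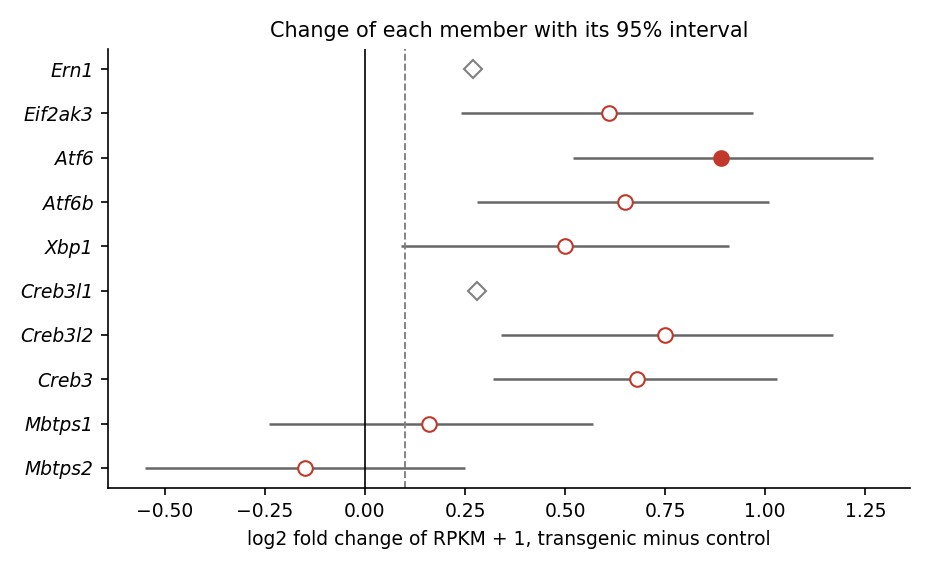
Log2 fold change of RPKM + 1 (x axis, transgenic minus control) of each gene with its 95% interval from limma. The filled point is the gene called, Atf6 at 0.89, open circles were not called, diamonds were not tested, and the dashed line is the median of all tested genes at 0.10.

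Creb3 (Luman), a membrane-bound factor of the same class that is widely expressed, had the highest level of the 10 genes. It was at 15.0 and 14.6 RPKM in control muscle and at 24.4 and 24.0 RPKM in the transgenics, from 749 to 1333 reads. The libraries of a group nearly coincided and the groups were well apart. The mean went from 14.8 ± 0.248 to 24.2 ± 0.249 RPKM (SD, n = 2), a fold of 1.64, with a log2 fold change of 0.68 (95% interval 0.32 to 1.03, limma adjusted p = 0.0533). By limma-voom on the reads Creb3 passed (adjusted p = 0.0466), and 2 of the 8 tested genes, Atf6 and Creb3, were then called higher, against 6.13% of all tested genes. The exons of Creb3 overlap those of Gba2 and Tln1 on the opposite strand, and Tln1 was at 8.67 and 6.09 against 13.1 and 12.9 RPKM; the part of its reads in the Creb3 value was not tested.

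Creb3l2 (BBF2H7), which in mouse cartilage drives COPII genes for collagen export, was at 1.49 and 1.02 RPKM in control muscle and at 2.65 and 2.90 RPKM in the transgenics, from 94 to 281 reads. The groups did not overlap, and the controls were spread more widely than the transgenics. The fold in RPKM was 2.21, the highest among the 10 genes, and the log2 fold change 0.75 (95% interval 0.34 to 1.17, limma adjusted p = 0.0592). Creb3l1 (OASIS), known in mouse bone as an activator of type I collagen, was at 0.874 and 0.499 RPKM in control muscle and at 0.988 and 1.09 RPKM in the transgenics, from 36 to 83 reads. Control library 2 was low and control library 1 lay close to transgenic library 1. Creb3l1 was below the filter, and with the filter of 0.5 RPKM its log2 fold change was 0.28 (95% interval -0.11 to 0.68, limma adjusted p = 0.317). The remaining relatives Creb3l3 and Creb3l4, known from liver and from prostate and testis, were at most at 0.0554 and 0.155 RPKM and were not tested.

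The proteases differed from the factors they cut in that their groups overlapped. Mbtps1 was at 2.11 and 1.6 RPKM in control muscle and at 2.33 and 2.05 RPKM in the transgenics, from 449 to 696 reads, with a log2 fold change of 0.16 (95% interval -0.24 to 0.57, limma adjusted p = 0.556). Mbtps2 was at 3.02 and 3.83 RPKM in control muscle and at 3.08 and 2.86 RPKM in the transgenics, from 360 to 457 reads. Control library 2 was the high one and the other 3 libraries lay together. Its log2 fold change was -0.15 (95% interval -0.55 to 0.25, limma adjusted p = 0.585), and its sign turned, to 0.0044, when Thbs1 was left out of the library sizes. On the log2 scale the intervals of Mbtps1 and Mbtps2 include no change, falls to -0.24 and -0.55 and rises to 0.57 and 0.25, in that order. Of the exon bases of Mbtps2, 2867 are shared with Yy2 on the same strand, whose RPKM ran from 0.464 to 0.592 over the 4 libraries. A difference in change between the proteases and Atf6 was not tested.

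Over all 10 genes, with the filter of 0.5 RPKM that tests every one, the median log2 fold change was 0.55, against 0.11 over the 11695 genes then tested. Under it 1 of 10 was called higher, Atf6, against 5.28% of genes. In the controls the order of levels in RPKM was Creb3, Xbp1, Mbtps2, Atf6, Mbtps1, Atf6b, Creb3l2, Eif2ak3, Creb3l1 and Ern1, and the values of Atf6b and Creb3l2, of Eif2ak3 and Creb3l1, and of Creb3l1 and Ern1 overlapped between neighbours. In the transgenics Atf6 stood above Mbtps2, and the values of Mbtps2, Atf6b and Creb3l2, and of Creb3l1 and Ern1, overlapped between neighbours. The order depends on the gene models used. The model length behind the RPKM of Xbp1 came out at 6394 bases, more than the 5235 bases that the gene spans in GENCODE M21, whose exons sum to 3248 bases. Per kilobase of those exons Xbp1 was at 16.4 and Creb3 at 17.0 in the controls, so their distance depends on the model taken. Atf6b had 4690 bases against 2757 and Mbtps2 6350 against 10105. By GENCODE exon lengths the control order was Creb3, Xbp1, Atf6, Mbtps1, Atf6b, Mbtps2, Eif2ak3, Creb3l1, Creb3l2 and Ern1. The ratio of RPKM between groups does not depend on that length, while the log2 fold change of RPKM + 1 and the filter do.

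The scaling moved both the calls and the changes. Under RPKM as deposited, Thbs1 left out and median-of-ratios scaling, the log2 fold change of Xbp1 was 0.50, 0.69 and 0.33, and that of Mbtps2 -0.15, 0.0044 and -0.29. With Thbs1 left out of the library sizes 6 of 9 tested genes were called higher (Atf6, Atf6b, Creb3, Creb3l2, Eif2ak3 and Xbp1), against 14.5% of all genes tested, and the median log2 fold change of all genes was then 0.26 instead of 0.10. With median-of-ratios scaling, where that median was -0.04, 1 was called, Atf6. Subtracting the median of all tested genes takes out most of such a shift by construction, and values relative to it are given only to place each gene against the rest. Under the 3 scalings in the same order Atf6 was then at 0.79, 0.81 and 0.79. Xbp1 was at 0.40, 0.42 and 0.37, Creb3 at 0.57, 0.61 and 0.54, and Mbtps2 at -0.25, -0.26 and -0.25. At a threshold of 0.1 in place of 0.05, 5 of the 8 were called higher (Atf6, Creb3, Creb3l2, Atf6b and Eif2ak3), against 13.0% of tested genes. Eif2ak3, which is in the counts of 5 and of 6, entered these tests through its transgenic values, which favours a difference. So did Creb3l1, which was among the 9 tested with Thbs1 left out and was not called.

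**Figure D3:**
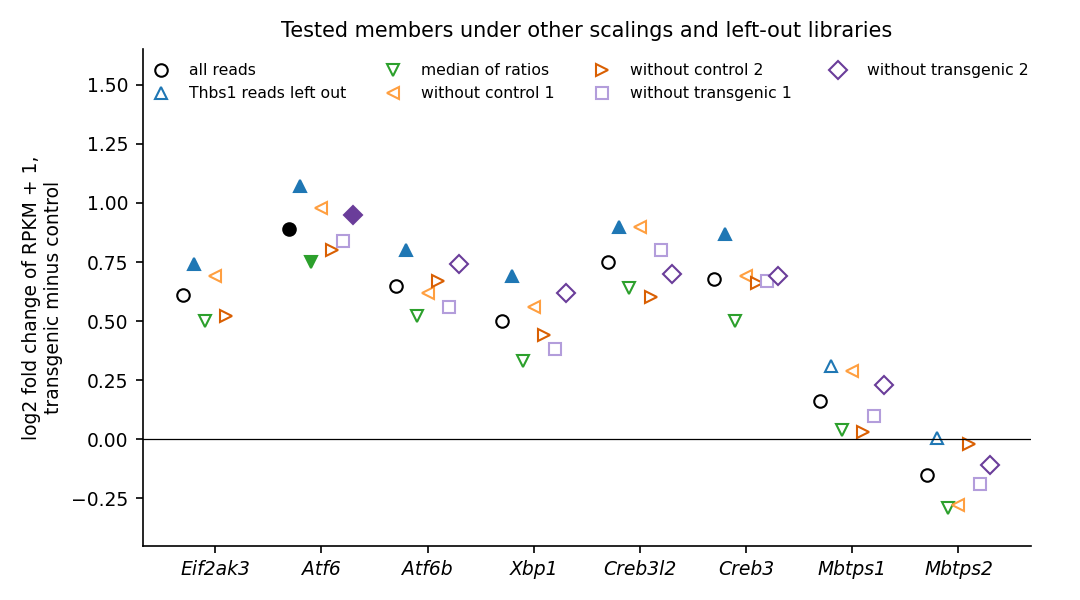
Log2 fold change of RPKM + 1 (y axis, transgenic minus control) of the 8 tested genes under 3 scalings and without each library. Filled points had a limma adjusted p under 0.05, and Eif2ak3 has no point without either transgenic library because it was then below the filter. Leaving out Thbs1 fills 6 genes, and the log2 fold change of Atf6 ran from 0.80 to 0.98 over the libraries left out.

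In the authors' deposited table the base means, which are reads over a library's size factor, went from 537 to 1025 for Atf6, a control over transgenic ratio of 0.524, with an adjusted p of 0.012. Creb3l2 had an adjusted p of 0.0816 in the authors' deposited table and Eif2ak3 0.105. With its threshold of 0.1 the authors' deposited table calls 2 of the 10 genes higher in transgenic muscle, Atf6 and Creb3l2, against 5.55% of the genes with a p-value. For Xbp1, Ern1 and Creb3l1 the authors' deposited table gives adjusted p of 0.573, 0.762 and 0.877. It rests on the same libraries, so it is no second measurement.

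The genes on which the sensors act were described from lists of known targets, some of which share genes. All 13 ATF6 targets were called higher, against 6.25% of all tested genes. Their median log2 fold change was 3.12 against 0.10 over all tested genes. Hspa5, the chaperone BiP that holds the sensors inactive, went from 21.5 and 18.6 to 247 and 197 RPKM, a fold of 11.1. Manf, a secreted ER stress protein, went from 10.1 and 11.1 to 216 and 163 RPKM, and Calr, the calcium-binding chaperone calreticulin, from 66.9 and 61.1 to 467 and 435 RPKM. Derl3, of ER-associated degradation, was at 0.0509 and 0 RPKM in the controls, from 2 and 0 reads, and at 29.9 and 17.4 RPKM in the transgenics, so it entered the test through the transgenic libraries. Leaving Derl3 aside, the other 12 had folds in RPKM from 3.49 to 22.5 and a median log2 fold change of 3.01. In all 12 both transgenic libraries lay above both control libraries, against 38.4% of all tested genes. The sensor genes had folds from 0.867 to 2.21, so each ATF6 target other than Derl3 had a larger fold than any sensor gene; the difference between the lists was not tested. All 13 calls were lost without control library 2, where limma called 1 gene in all.

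Of 18 XBP1 targets 16 were called higher and 0 lower, against 6.25% of all tested genes called higher, and the median log2 fold change was 1.23. All 18 were higher at an unadjusted limma p under 0.05, against 20.4% of all tested genes. In all 18 both transgenic libraries lay above both control libraries, against 38.4% of all tested genes. Pdia6, a disulfide isomerase that binds IRE1, went from 15.2 and 14.6 to 149 and 137 RPKM, and Syvn1, the ubiquitin ligase of ER-associated degradation, from 2.84 and 2.91 to 23.3 and 15.6 RPKM. Dnajb11 and Dnajc3, which are cochaperones of BiP and stand on the ATF6 list as well, rose 4.31-fold and 5.36-fold. With no filter on low values 6 of the 18 were called, and without control library 2 none was. Levels of Xbp1 and of its targets do not show how much of the Xbp1 message was spliced.

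Of 13 tested genes downstream of PERK and ATF4 4 were called higher and 0 lower, against 6.25% of all tested genes called higher. The list median of the log2 fold change was 0.81. The 4 were Asns, asparagine synthetase (log2 fold change 2.47), Trib3, a pseudokinase that damps ATF4 (1.94), Psat1, of serine synthesis (1.71), and Nupr1, a stress-induced nuclear protein (1.59). Of these all but Nupr1 lay under 1 RPKM in each control and entered the test through the transgenic libraries. Over the other 10 tested genes 1 was called higher and the median was 0.48. At an unadjusted limma p under 0.05, 5 of those 10 were higher, against 20.4% of all tested genes. Over all 13 that count was 8 higher and 0 lower. Ddit3 (CHOP), at 1.9-fold in RPKM, and Atf3, at 2.7-fold, were not called (limma adjusted p = 0.0814 and 0.0729). Both were named after their values were seen. Atf4 itself, chosen after its values were seen, was at 60.7 and 68.6 RPKM in control muscle and at 77.2 and 75.6 RPKM in the transgenics (limma adjusted p = 0.391). Without transgenic library 1 the count fell to 1 and without control library 2 to 0, while with Thbs1 left out of the library sizes it was 8. The control libraries differed in this list, which summed to 130 RPKM in control library 1 and 289 in control library 2. Most of that gap lay in Ddit4, at 5.97 and 100 RPKM, and Cebpb, at 25.0 and 68.9 RPKM, both named after their values were seen.

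The other kinases of eIF2alpha gave no call. Eif2ak1 (HRI, which senses haem) was at 9.91 and 10.7 RPKM in control muscle and at 9.03 and 8.93 RPKM in the transgenics. Eif2ak2 (PKR, which senses double-stranded RNA) was at 2.58 and 1.36 against 3.27 and 2.17 RPKM, and Eif2s1, the gene of eIF2alpha itself, at 5.73 and 5.62 against 5.55 and 4.92 RPKM. Of these 3 tested genes 0 were called by limma or limma-voom, and 0 had an unadjusted p under 0.05. Eif2ak4 (GCN2, which senses uncharged tRNA) was at 0.259 to 0.454 RPKM and was not tested. Eif2ak3 was the kinase of this group with the largest fold, 2.11, and that difference between kinases was not tested.

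**Figure D4:**
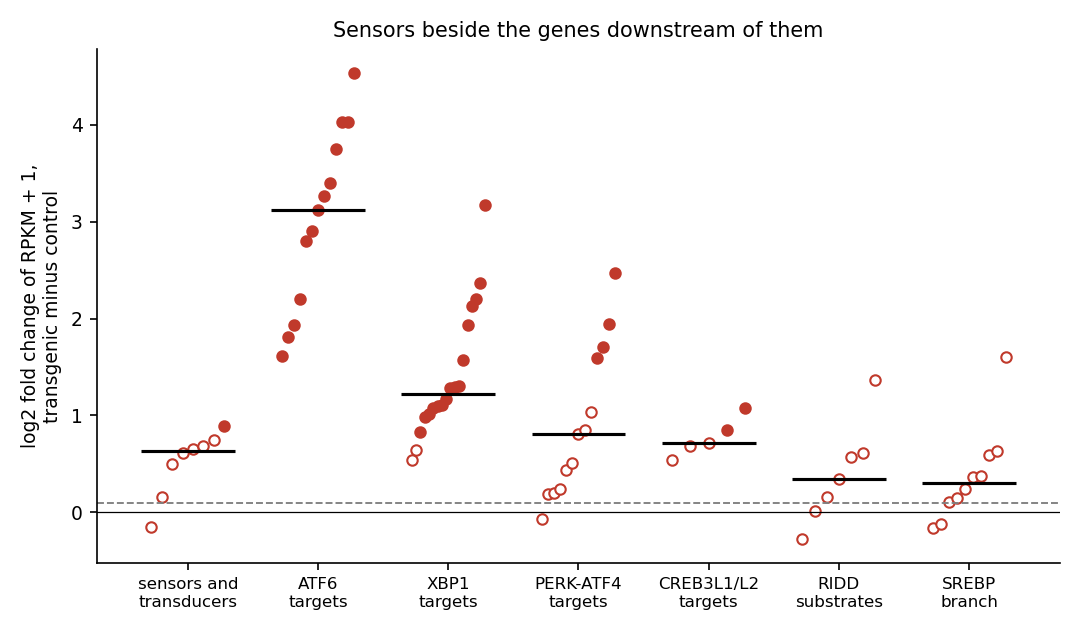
Log2 fold change of RPKM + 1 (y axis, transgenic minus control) of each tested sensor gene and of the genes on 6 lists downstream of them. Filled points had a limma adjusted p under 0.05, bars are list medians and the dashed line is the median of all tested genes at 0.10; all 13 ATF6 targets are filled, against 1 of 8 sensor genes.

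Among regulators and adaptors of the sensors 5 of 16 tested genes were called higher and 0 lower, against 6.25% of all tested genes called higher. The list median of the log2 fold change was 0.45. They were Hspa5, Hsp90b1 (the ER chaperone GRP94, 7.84-fold in RPKM), Dnajc3 (p58IPK, an inhibitor of PERK), Dnajb9 (ERdj4, which brings BiP to IRE1, 4.62-fold) and Wfs1 (wolframin, which promotes the degradation of ATF6), the last named after its values were seen. All of these but Wfs1 also stand on the list of ATF6 targets or of XBP1 targets and are counted there. Wfs1 went from 18.5 and 14.0 RPKM to 44.8 and 42.9 RPKM, a log2 fold change of 1.39. With Thbs1 left out of the library sizes 8 were called, and without control library 2 none was.

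Messages that IRE1 is known to degrade in other mouse cells, called RIDD substrates, gave 0 calls of 7 by limma or limma-voom in either direction. At an unadjusted limma p under 0.05, 2 of the 7 were higher and 0 lower, against 20.4% of all tested genes higher. Bloc1s1, the substrate most often used as a readout, was at 18.4 and 25.2 RPKM in control muscle and at 19.7 and 15.7 RPKM in the transgenics (log2 fold change -0.28, limma adjusted p = 0.463). Transgenic library 1 lay between the controls and transgenic library 2 below both. Col6a1, a collagen VI chain, had a log2 fold change of 1.37, Sparc, a matrix glycoprotein, 0.61 and Pdgfrb, a receptor of pericytes and fibroblasts, 0.57. All of these 3 had lower values in control library 2 than in control library 1, and 1 list member was called without control library 1 and 1 without transgenic library 2.

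Of 5 targets of CREB3L1 and CREB3L2 2 were called higher and 0 lower, against 6.25% of all tested genes called higher. One of the called genes, Sec24d, stands on the XBP1 list as well. Sec24d, a cargo-binding subunit of COPII coats, went from 1.32 and 0.779 to 3.32 and 3.26 RPKM (log2 fold change 1.08, limma adjusted p = 0.0326), and Arf4, a GTPase of the Golgi, from 9.09 and 7.54 to 16.7 and 14.8 RPKM (0.85, adjusted p = 0.0459). Sec23a, a COPII subunit, was at 15.6 and 16.4 against 23.5 and 23.9 RPKM and just missed the threshold (0.54, adjusted p = 0.0849). The type I collagen genes Col1a1 (log2 fold change 0.72, limma adjusted p = 0.395) and Col1a2 (0.68, adjusted p = 0.38) were not called. Control library 2 was low in both, at 47.6 against 131 RPKM for Col1a1 and 82.5 against 209 RPKM for Col1a2 in control library 1, and the groups overlapped. The call of Sec24d or Arf4, or of both, was lost without control library 2, without either transgenic library, with no filter, a pseudocount of 0.1, median-of-ratios scaling, the filter of 0.5 RPKM and the replicate block, where 0 or 1 of the 5 was called.

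The proteases also release the sterol factors SREBP, and that branch gave 0 calls of 10 tested genes by limma, 1 by limma-voom and 2 at an unadjusted p under 0.05, all higher. Of all tested genes 6.13% were called higher by limma-voom and 20.4% were higher at an unadjusted limma p under 0.05. Insig1, which retains SREBP in the ER, was at 4.33 and 2.08 RPKM in control muscle and at 14.5 and 8.75 RPKM in the transgenics (a 3.63-fold difference in means, limma adjusted p = 0.0588). Fdps, of isoprenoid synthesis, had a log2 fold change of 0.36 and Srebf1, the gene of an SREBP, 0.59. The list median was 0.30.

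The promoters of the sensor genes were read for the motifs through which ER stress factors act, in RefSeq windows on GRCm38.p6 that run from 250 bases before to 50 bases after the start. Both strands were searched for the ER stress element ERSE, bound by ATF6 with NF-Y (CCAAT, then 9 bases of any kind, then CCACG), for ERSE-II (ATTGG, 1 base, then CCACG), for the UPRE (TGACGTGG), for the cAMP response element (TGACGTCA) and for the ATF4 element CARE (TGATG, 1 base, then AA). Of the 10 genes 8 had a window, all but Atf6 and Creb3l1, and 0 of the 8 windows held any of the 5 motifs, which 6.52% of all 32851 windows do. Of the 13 ATF6 targets 11 had a window, and 6 of them held the ERSE, present in 0.119% of all windows, while Dnajb11 and Herpud1 held ERSE-II, present in 0.0365%. Such targets were in part found through these elements, so the count is a description of the list. UPRE, present in 0.676% of windows, was in those of Sec23a and Sec24d, and CARE, present in 3.97%, in those of 6 of the 13 genes of the PERK and ATF4 list that have one. The cAMP response element is in 1.79% of windows. No match says only that these letters are not in the window.

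The ERSE windows of the ATF6 targets are printed to set the element beside sensor promoters that lack it, each on the strand of its gene with the element in capitals. An element that starts with CGTGG lies on the other strand. Hspa5 is at chr2:34772017-34772051 (forward strand), with the element 65 to 47 bases before the start. Hsp90b1 has 2, at chr10:86705630-86705664 and chr10:86705525-86705559 (reverse strand). Calr is at chr8:84847067-84847101 (reverse), Creld2 at chr15:88819512-88819546 (forward), Derl3 at chr10:75893234-75893268 (forward) and Dnajc3 at chr14:118937819-118937853 (forward).
Hspa5: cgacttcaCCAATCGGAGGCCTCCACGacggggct
Hsp90b1, distal: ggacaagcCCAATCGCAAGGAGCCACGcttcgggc
Hsp90b1, proximal: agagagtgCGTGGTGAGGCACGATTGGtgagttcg
Calr: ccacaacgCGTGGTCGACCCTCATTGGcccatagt
Creld2: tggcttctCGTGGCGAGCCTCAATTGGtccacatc
Derl3: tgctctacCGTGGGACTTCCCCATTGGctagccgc
Dnajc3: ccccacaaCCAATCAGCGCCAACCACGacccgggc

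Beside them stand the windows of Xbp1 (chr11:5520391-5520690, forward strand) and Eif2ak3 (chr6:70844265-70844564, forward strand), the messages behind the branches of IRE1 and PERK. Neither holds any of the 5 motifs, so no base is in capitals.
Xbp1 promoter: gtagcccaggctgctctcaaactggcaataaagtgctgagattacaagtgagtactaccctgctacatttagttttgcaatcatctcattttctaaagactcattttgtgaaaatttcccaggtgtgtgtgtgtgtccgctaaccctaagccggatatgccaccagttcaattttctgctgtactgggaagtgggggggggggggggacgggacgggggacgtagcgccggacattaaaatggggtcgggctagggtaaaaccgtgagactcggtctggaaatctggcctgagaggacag
Eif2ak3 promoter: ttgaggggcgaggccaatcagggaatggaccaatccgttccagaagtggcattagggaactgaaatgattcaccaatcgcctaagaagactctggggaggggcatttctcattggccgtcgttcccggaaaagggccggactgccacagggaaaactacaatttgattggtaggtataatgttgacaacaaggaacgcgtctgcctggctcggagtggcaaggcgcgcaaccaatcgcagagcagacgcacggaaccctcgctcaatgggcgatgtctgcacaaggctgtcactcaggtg

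Macrophage and fibroblast markers were in part higher in the transgenics, as Atf6 was. Of 10 macrophage markers 8 were called higher, against 6.25% of all tested genes, and 7 of these were among the 8 markers not below 1 RPKM in both controls. The summed level of the 10 was 53.6 and 84.1 RPKM in the controls and 244 and 270 RPKM in the transgenics. Of 6 fibroblast markers 3 were called higher, against the same 6.25%, with sums of 139 and 184 against 226 and 262 RPKM. In whole muscle a change in the number of cells of a type and a change in RNA per cell cannot be told apart, and the part of these cells in the values of Atf6, Xbp1 or Creb3 was not tested. Plasma cells are rich in Xbp1 message, and of 7 B and plasma cell markers Mzb1 and Jchain rose, both from under 1 RPKM in each control. By limma-voom Mzb1 passed (adjusted p = 0.0368) and Jchain did not (0.0553). Cd79b, not tested, was at 0.0273 and 0.0845 against 0.317 and 0.508 RPKM, while Ms4a1 was listed at 0 in all 4 libraries and Tnfrsf17 was at most at 0.155 RPKM. Endothelial markers gave 0 calls of 6 by limma or limma-voom and 0 at an unadjusted p under 0.05. T cell markers, none of them tested, summed to 0.26 and 0.0573 RPKM in the controls and 0.812 and 1.19 RPKM in the transgenics. Adipocyte markers summed to 431 RPKM in transgenic library 1 and to 34.5 to 38.5 RPKM in the other 3. Without transgenic library 1 the log2 fold change of Atf6 was 0.84, a value that rests on a single transgenic library. The part of adipocytes in the values of Atf6 was not tested.

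The 3 tested genes whose values over the 4 libraries lay nearest to those of Atf6 were Clec4a1, a C-type lectin, Tspan5, a tetraspanin, and Atxn10, ataxin 10. Nearness is the Euclidean distance of log2(RPKM + 1) after subtracting the control mean, and was 0.0292, 0.0397 and 0.0432. With 4 libraries many genes share such a pattern.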

How the data were processed

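Per the submitters' processing notes, bcl2fastq, TopHat and edgeR were used with the mouse build mm10, and versions are not given in the sources used here. The authors deposited RPKM for each library, base means (a signal, reads over a size factor), the ratio of control to transgenic base mean, and p-values, raw and adjusted. RPKM and base means together gave the reads per gene, whole within 1e-06 of a read for 100% of values, and these served for depth, limma-voom and other scalings. A filter of at least 1 RPKM in at least 2 libraries left 10015 genes. They were tested with limma 3.58.1 (R 4.3.3, mean-variance trend, two-sided, no covariates) on log2(RPKM + 1). Fold changes are transgenic minus control. The fit was tested on simulated data. Genes, lists and tests were chosen with earlier results of these data known. Named genes are the 10 studied, Thbs1, up to 4 per list with the smallest p, all of lists of 5 or fewer, and the 3 genes nearest to a called one. Some listed genes are not reported here. Of 141 listed symbols 138 matched directly and 3 by gene ID. Promoters are from RefSeq (GRCm38.p6), loci from GENCODE M21 (GRCm38, the assembly called mm10). Alternatives were the pseudocount, filter, scaling, limma-voom, a replicate block, the threshold and each library left out. Tables and plots were made in Python 3.11.15 with pandas 2.3.3, numpy 2.4.6 and matplotlib 3.10.9.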

Additional observations from a re-analysis of the deposited data

How the results depend on the processing

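Of the settings, those marked added were set up once the data had been seen. The count of sensor genes called higher, 1 by the main test, was 5 at a threshold of 0.1, 0 with no filter, 6 with Thbs1 left out of the library sizes, 2 by limma-voom, and 0 to 1 over the libraries left out. It was 1 with a pseudocount of 0.1, median-of-ratios scaling, the replicate block and both added settings. None was called lower in any of these. Genes called higher over the whole table numbered 626, and 1303 at a threshold of 0.1, 135 with no filter, 1486 with Thbs1 left out and 1 to 583 over the libraries left out. Genes called lower numbered 122, and 402, 11, 244 with median-of-ratios scaling, 64 with the replicate block, 469 with limma-voom and median-of-ratios sizes (added) and 0 to 156 over the libraries left out; the cause of these shifts was not tested. ATF6 targets called ranged from 0 to 13 over the libraries left out, XBP1 targets from 0 to 15, with 6 under no filter, and PERK and ATF4 targets from 0 to 4, with 8 at a threshold of 0.1 and 8 with Thbs1 left out. Of the sensor genes Mbtps2 turned sign, to 0.0044 with Thbs1 left out (adjusted p = 0.988, and 0.294 to 0.988 over its alternatives). With the replicate number as a block the call of Atf6 held (adjusted p = 0.0464) and no other sensor gene was called. The deviations of libraries with the same number correlated at 0.0742 across the tested genes. With 2 pairs this value cannot decide whether such libraries were handled together. Where 1 library of a group was left, its spread was taken from the other group. Ern1 and Creb3l1 had the fewest reads of the sensor genes, 36 to 153 per library. Eif2ak3, which is in the counts of 5 and 6 sensor genes above, entered the test through its transgenic values.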
